A study of Mus musculus with 8 samples.

Results

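The genes described here are 37 genes of skeletal muscle, taken as a fixed list of symbols and found by Ensembl identifier among the 55414 genes of a count table of PyMt mammary tumors. All 37 had a row in the table. They encode proteins of the thick filament (10 genes), the thin filament (8 genes), the Z disc, titin and the costamere (8 genes), calcium handling (6 genes) and energy metabolism (5 genes). The tumors came from the PyMt cell line, which was established from an MMTV-PyMt mouse tumor, where the MMTV promoter drives the polyoma middle T antigen in mammary epithelium. WT C57BL/6 female mice aged 6 to 8 weeks received the cells in an inguinal mammary fat pad. For 4 tumors, calcipotriol, a vitamin D analog, was applied to the skin in ethanol at 20 nmol every 2 days from day 2 after injection, and the other 4 tumors received ethanol (EtOH) alone. All 8 tumors carried the same cell line in WT hosts and were taken 24 hours after the last treatment. RNA-Seq was performed on 1 library per tumor, and the tumors are called EtOH 1, 2, 3 and 4 and calcipotriol 1, 5, 6 and 7 after their labels.

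Skeletal muscle fibers contract when myosin of the thick filaments pulls on actin of the thin filaments, and the troponins on the thin filaments switch this on when calcium is released from the sarcoplasmic reticulum. Fast and slow fibers use separate genes for myosin heavy chains, troponins and the calcium pump. Mature fibers express these genes at high levels, while mammary epithelium is not known for them. The mouse mammary fat pad lies under the skin, close to the thin muscle sheet of the skin and to the abdominal wall.

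Library totals were 19685419 to 25084713 counts. The labels call the cells epithelial, and Krt8, a keratin of simple epithelia, had 6234 to 13390 counts in every tumor. Of 12 mammary epithelial genes, however, only 4 exceeded 3 counts in each of EtOH 1 and EtOH 2, against 9 to 12 in the other tumors. Epcam, an epithelial adhesion molecule, had 0 counts in both EtOH 1 and EtOH 2, 106 and 65 counts in EtOH 3 and 4, and 26 to 536 counts in the calcipotriol tumors. EtOH 1 and 2 therefore stood apart from EtOH 3 and 4 in genes other than those of muscle, and all 4 EtOH tumors enter every comparison unless a tumor is said to be left out.

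Muscle transcripts were scarce and were concentrated in 2 of the 8 tumors, EtOH 3 and EtOH 4. Without Eno3, an enolase that was abundant in every tumor, the summed level of the muscle genes was 16.6 and 14.9 CPM (counts scaled to the TMM library size) in EtOH 1 and 2, and 91.3 and 95.8 CPM in EtOH 3 and 4. It was 17.4, 20.3, 28.7 and 24.8 CPM in calcipotriol 1, 5, 6 and 7. EtOH 3 and 4 were thus the highest tumors, and EtOH 1 and 2 were the lowest. Even in EtOH 4 these 36 genes took 0.00938% of the counts. The number of the 37 genes with more than 3 counts was 17, 11, 31 and 28 in EtOH 1, 2, 3 and 4, and 17, 19, 27 and 26 in calcipotriol 1, 5, 6 and 7. In bulk tumor RNA, fewer cells of a type and less RNA per cell cannot be told apart, and the cells that gave these transcripts were not determined.

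**Figure D1:**
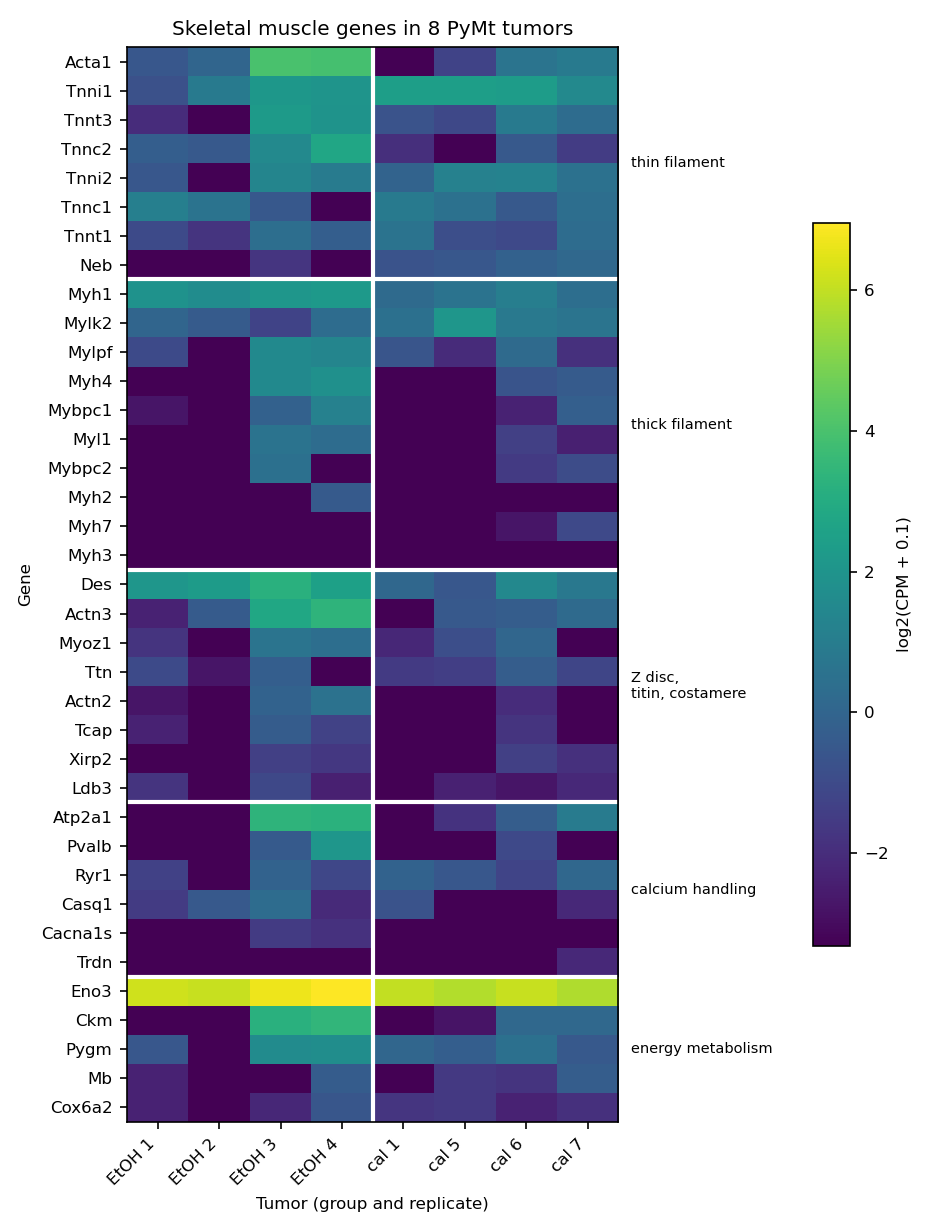
Levels of the 37 muscle genes in the 8 tumors, as log2 of CPM plus 0.1, with a row per gene grouped by role and a column per tumor (cal, calcipotriol). EtOH 3 and EtOH 4 are bright in most rows with signal, whereas Eno3 is bright in all 8 columns and Tnnc1, Mylk2 and Neb are not highest in EtOH 3 or 4.

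Of the 37 genes, 20 passed the filter on low counts and were tested with edgeR, among 14458 genes in all. The 17 genes that did not pass had at most 93 counts in any tumor. None of the 20 passed both thresholds, an adjusted p under 0.05 and a log2 fold change of 1 or more in size, in calcipotriol- compared with EtOH-treated tumors, whereas 2.02% of all genes tested did. Without the adjustment, 8 of the 20 had p under 0.05 (2 higher and 6 lower with calcipotriol), against 18.4% of all genes. limma-voom called 0 of the 20 and DESeq2 called 3, all lower (Myh1, Tnnc2 and Des), beside the 2.25% of all genes that DESeq2 called lower. DESeq2 gave no adjusted p for Tnnt1, Neb, Ryr1 and Myoz1, so it could not call them. The log2 fold change was positive for 7 genes and negative for 13, with a median of -1.06, beside 0.02 for all genes tested. The 20 genes had a median SD within a group of 1.56 on the log2 CPM scale, against 0.32 for all genes.

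The median turned with the EtOH tumors used. With EtOH 3 and 4 left out it was 1.45, and with EtOH 1 and 2 left out it was -1.93, both chosen after the data were seen. These fits tested 20 and 28 of the 37 genes, respectively, and called 0 in each, beside 3.9% and 1.14% of all genes. In them, 6 and 15 muscle genes had an unadjusted p under 0.05. The share of all genes at that p was not taken in these fits, so the 6 and 15 cannot be set against it. Some of the 28 passed the filter only through EtOH 3 and 4, where they were highest.

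**Figure D2:**
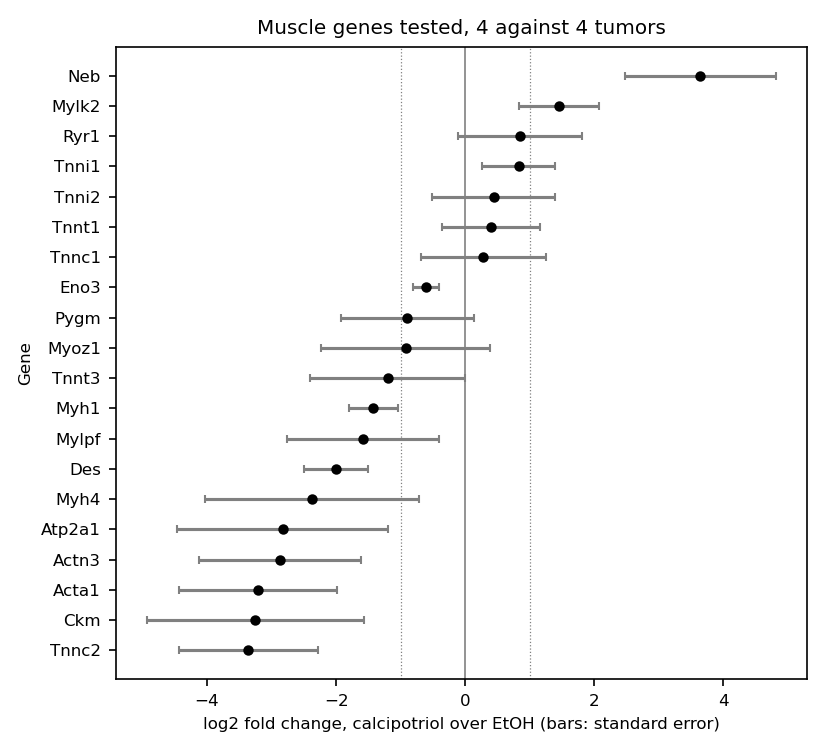
Log2 fold change of the 20 muscle genes tested, calcipotriol over EtOH (4 tumors each), as points, with dotted lines at -1 and 1. Bars show a standard error derived from the F statistic of the edgeR test, so a bar that does not reach 0 means only that F exceeded 1. Points of 13 genes lie below 0 and of 7 above, and the bars of Myh1, Des, Eno3, Mylk2 and Neb are among those that do not reach 0, although none passed the adjusted test.

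In energy metabolism, Ckm, the muscle creatine kinase that regenerates ATP, had 0, 0, 223 and 243 counts in EtOH 1, 2, 3 and 4, and 0, 1, 21 and 24 counts in calcipotriol 1, 5, 6 and 7. Ckm was therefore at 0 to 1 count in 4 of the 8 tumors, spread over both groups, and the groups overlapped. Ckm averaged 4.94 ± 5.74 CPM in EtOH-treated and 0.518 ± 0.572 CPM in calcipotriol-treated tumors (SD, n = 4 each), a spread above the mean in both groups. Its log2 fold change of -3.25 (SE 1.68) had an adjusted p of 0.334 by edgeR. An antisense gene, A930016O22Rik, shares 10.8% of the 50-base stretches of Ckm exons and had 0 counts in every tumor.

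Pygm, the muscle glycogen phosphorylase, had 12, 0, 74 and 72 counts in the EtOH tumors and 24, 16, 27 and 15 counts in the calcipotriol tumors. Its highest tumors were again EtOH 3 and 4, and the lowest was EtOH 2 (log2 fold change -0.90, SE 1.03, adjusted p = 0.693). Eno3, the enolase isoform of muscle, had 1502, 1384, 2536 and 2802 counts in the EtOH tumors and 1610, 1192, 1429 and 1242 counts in the calcipotriol tumors. EtOH 3 and 4 were highest for Eno3 too, but the gene was abundant in all 8 tumors. Its log2 fold change was -0.61 (SE 0.20), with an adjusted p of 0.131. Per kb of exon, Eno3 averaged 43.6 CPM, against 2.95 CPM per kb for Acta1, the next muscle gene. Mb, the oxygen-binding myoglobin, and Cox6a2, a muscle subunit of cytochrome c oxidase, had at most 17 and 13 counts in any tumor.

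The bases before the start of the genes that moved most closely with the rest, among those with a RefSeq window, are given here beside those of Tnnc1, which moved the opposite way across tumors. They were taken from RefSeq (GRCm38.p6), 5′ to 3′ on the strand of the gene, and end at the gene start or, where a GENCODE M21 exon of the gene begins earlier, before that exon. Ckm is at chr7:19410844-19411024 (+ strand), Atp2a1 at chr7:126463109-126463323 (− strand), Myh4 at chr11:67237562-67237811 (+ strand) and Tnnc1 at chr14:31208062-31208311 (+ strand). Capitals mark E-boxes (CANNTG, the site of MyoD family factors), CATTCC (the MCAT element), TATAAA, and the MEF2 site and CArG box, which bind MEF2 and serum response factor, on either strand.
Ckm: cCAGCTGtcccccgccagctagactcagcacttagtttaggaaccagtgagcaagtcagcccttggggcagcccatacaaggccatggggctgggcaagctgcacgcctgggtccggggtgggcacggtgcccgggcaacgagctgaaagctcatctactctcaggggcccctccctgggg
Atp2a1: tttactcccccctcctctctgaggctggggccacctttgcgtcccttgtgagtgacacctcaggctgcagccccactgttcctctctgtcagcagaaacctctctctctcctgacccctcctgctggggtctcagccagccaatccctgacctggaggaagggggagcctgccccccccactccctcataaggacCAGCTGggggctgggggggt
Myh4: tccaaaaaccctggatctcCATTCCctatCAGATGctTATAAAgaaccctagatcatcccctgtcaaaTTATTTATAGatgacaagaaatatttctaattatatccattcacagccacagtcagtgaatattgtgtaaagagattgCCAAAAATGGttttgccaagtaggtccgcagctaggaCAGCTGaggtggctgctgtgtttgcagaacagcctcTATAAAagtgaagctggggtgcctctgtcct
Tnnc1: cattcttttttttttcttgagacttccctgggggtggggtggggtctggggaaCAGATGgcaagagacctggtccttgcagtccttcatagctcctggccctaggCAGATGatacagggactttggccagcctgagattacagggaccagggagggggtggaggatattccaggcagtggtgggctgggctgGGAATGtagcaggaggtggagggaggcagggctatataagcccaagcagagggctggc

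Myh4 had a hit of each of these motifs in its 250 bases, including 3 of TATAAA, of which 1 overlaps the MEF2 site. Ckm and Atp2a1 had 1 E-box each, of the form CAGCTG, and no other motif. Tnnc1 had 2 E-boxes, neither of them CAGCTG, and 1 CATTCC. Windows of 250 bases were matched for 28 of the 37 genes (34 windows). CAGCTG was present in 44.1% of them, against 13% of 32851 windows of all genes. Any E-box, which includes CAGCTG, was in 82.4% against 66.2%. The MEF2 site was in 14.7% against 2.92%, the CArG box in 11.8% against 1.47%, CATTCC in 26.5% against 12.6% and TATAAA in 17.6% against 12.4%. Some genes had overlapping windows, as Ldb3 did, which count the same site again. By gene, CAGCTG was in 13 of the 28, any E-box in 24, the MEF2 site in 5, the CArG box in 3, CATTCC in 9 and TATAAA in 6. These counts describe letters in a window, and binding was not measured.

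In the thin filament, Acta1, the skeletal alpha-actin, had 12, 19, 395 and 344 counts in the EtOH tumors and 0, 7, 30 and 42 counts in the calcipotriol tumors. Like Ckm, Acta1 was far higher in EtOH 3 and 4 than elsewhere, but it was detected in EtOH 1 and 2 (log2 fold change -3.21, SE 1.23, adjusted p = 0.201). Neb, the giant nebulin that spans the thin filament, differed, with 0, 0, 5 and 0 counts in the EtOH tumors and 13, 13, 17 and 24 counts in the calcipotriol tumors. All 4 calcipotriol values of Neb were above all EtOH values. The log2 fold change was 3.64 (SE 1.17), with an adjusted p of 0.131.

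The troponins did not share a pattern. Troponin has a subunit that binds tropomyosin (Tnnt), one that inhibits contraction (Tnni) and one that binds calcium (Tnnc), each in fast and slow forms. Fast Tnnt3 had 3, 0, 116 and 85 counts in the EtOH tumors and 13, 8, 36 and 27 counts in the calcipotriol tumors, with EtOH 3 and 4 highest and EtOH 2 lowest (log2 fold change -1.20, adjusted p = 0.651). Slow Tnnt1 had 8, 4, 30 and 17 counts in the EtOH tumors and 35, 10, 8 and 27 counts in the calcipotriol tumors, with the groups overlapping (log2 fold change 0.40, adjusted p = 0.828). Slow Tnni1 had 10, 36, 105 and 88 counts in the EtOH tumors and 135, 117, 106 and 65 counts in the calcipotriol tumors. Tnni1 was thus highest in calcipotriol 1, a tumor in which Ckm was at 0 (log2 fold change 0.83, SE 0.57, adjusted p = 0.481). Fast Tnni2 was detected in calcipotriol 1 as well, with 12, 0, 61 and 41 counts in the EtOH tumors and 22, 48, 47 and 31 counts in the calcipotriol tumors (log2 fold change 0.44, adjusted p = 0.851).

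Slow Tnnc1, which is also the cardiac calcium-binding subunit, had 43, 29, 15 and 0 counts in the EtOH tumors and 45, 29, 13 and 29 counts in the calcipotriol tumors. EtOH 4, the tumor with the most Ckm, was the only one without Tnnc1 (log2 fold change 0.28, adjusted p = 0.914). Fast Tnnc2 had 15, 13, 68 and 150 counts in the EtOH tumors and 4, 0, 13 and 6 counts in the calcipotriol tumors. The counts of Tnnc2 tied at 13 in EtOH 2 and calcipotriol 6, and the groups were apart by no more than 0.633 against 0.625 CPM there (log2 fold change -3.36, SE 1.08, adjusted p = 0.131 by edgeR, 0.0138 by DESeq2 and 0.0138 to 0.287 over all alternative settings). The count of Tnnc2 is uncertain, since 592 of its 800 exonic bases lie opposite exons of Ube2c, a gene of mitotic ubiquitination, and no source used here states that counting used the strand. Ube2c had 1971, 2205, 3401 and 3502 counts in the EtOH tumors and 1631, 1451, 1351 and 1898 counts in the calcipotriol tumors, also lower in each calcipotriol tumor. The share of Tnnc2 counts due to Ube2c was not tested.

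In the thick filament, the myosin heavy chain genes of adult fast fibers differed from each other. Myh4, of the fastest fibers, had 0, 0, 70 and 78 counts in the EtOH tumors and 0, 0, 11 and 16 counts in the calcipotriol tumors, and was thus found in the 4 tumors where Ckm exceeded 1 count (log2 fold change -2.37, SE 1.66, adjusted p = 0.491). Myh1, of intermediate fast fibers, had 76, 63, 103 and 101 counts in the EtOH tumors and 27, 31, 42 and 29 counts in the calcipotriol tumors. Myh1 was present in every tumor, including those without Myh4, and all EtOH values were above all calcipotriol values. Myh1 averaged 3.85 ± 0.607 CPM in EtOH-treated and 1.43 ± 0.414 CPM in calcipotriol-treated tumors (SD, n = 4 each). Its log2 fold change of -1.42 (SE 0.38) had an adjusted p of 0.0779 by edgeR and 0.00603 by DESeq2, and 0.00603 to 0.188 over all alternative settings. Of the 50-base stretches of Myh1, 30.5% also occur in other genes, mostly Myh2 (18.7%), so its counts depend on how shared reads were divided. Myh2, the fast oxidative form, had 15 counts in EtOH 4 and 0 elsewhere, and Myh7, the slow form, had 1 and 9 counts in calcipotriol 6 and 7 and 0 elsewhere. Myh3, the embryonic form, was at 0 in all 8 tumors.

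Among the light chains and their kinase, Mylpf, the fast regulatory light chain, had 8, 0, 71 and 56 counts in the EtOH tumors and 14, 3, 22 and 4 counts in the calcipotriol tumors (log2 fold change -1.58, adjusted p = 0.521). Myl1, the fast essential light chain, had 35 and 26 counts in EtOH 3 and 4 and at most 6 elsewhere, and did not pass the filter. Both were highest in EtOH 3 and 4. Mylk2, the kinase of the regulatory light chain in skeletal muscle, had 19, 14, 8 and 26 counts in the EtOH tumors and 32, 89, 35 and 34 counts in the calcipotriol tumors. All 4 calcipotriol values of Mylk2 exceeded the EtOH values, and EtOH 3 was lowest (log2 fold change 1.45, SE 0.62, adjusted p = 0.246). Mybpc1 and Mybpc2, the slow and fast myosin-binding proteins C, had at most 50 and 32 counts, in EtOH 4 and EtOH 3, respectively.

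In the Z disc, Actn3, the alpha-actinin of fast fibers, had 2, 14, 169 and 229 counts in the EtOH tumors and 0, 14, 15 and 25 counts in the calcipotriol tumors (log2 fold change -2.87, SE 1.25, adjusted p = 0.255). Actn3 thus followed Acta1, with EtOH 3 and 4 far above the rest. Des, the intermediate filament desmin that links Z discs and is also made by smooth muscle cells and pericytes, had 86, 101, 223 and 128 counts in the EtOH tumors and 25, 13, 56 and 39 counts in the calcipotriol tumors. Des was detected in every tumor, and its groups did not overlap. Des averaged 5.94 ± 2.14 CPM in EtOH-treated and 1.48 ± 0.917 CPM in calcipotriol-treated tumors (SD, n = 4 each). Its log2 fold change of -2.0 (SE 0.49) had an adjusted p of 0.061 by edgeR and 0.0022 by DESeq2, and 0.0022 to 0.141 over all alternative settings. Myoz1, a calcineurin-binding protein of fast Z discs, had 4, 0, 36 and 28 counts in the EtOH tumors and 3, 10, 20 and 0 counts in the calcipotriol tumors (log2 fold change -0.92, adjusted p = 0.762). Ttn, the giant spring protein titin, had at most 18 counts although its exons span 116825 bases, a mean of 0.00293 CPM per kb. Actn2, Tcap, Ldb3 and Xirp2 had at most 31, 17, 9 and 7 counts in any tumor.

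Smooth muscle and mural cell genes were measured beside Des. Of 16 such genes, 15 were tested, 14 had a negative log2 fold change and 2 were called lower by edgeR. Among all 14458 genes tested, 6920 had a negative log2 fold change and 137 were called lower. The 2 were Mylk, the smooth muscle light chain kinase (log2 fold change -1.44), and Rgs5, a pericyte marker (log2 fold change -2.60). The summed level of the 16 genes was 608 to 1009 CPM with EtOH and 393 to 672 CPM with calcipotriol. Within the EtOH group the members differed. Pdgfrb, a receptor of mural cells and fibroblasts and the most abundant of the list, had 14256, 11682, 7799 and 6853 counts in EtOH 1, 2, 3 and 4. The contractile genes Acta2 (395, 653, 1133 and 1155 counts) and Tagln (152, 178, 718 and 877 counts) were instead higher in EtOH 3 and 4, as Des was. Endothelial genes (12 tested, 7 called lower, 206 to 469 against 83.5 to 152 CPM) and erythroid genes (7 tested, 5 called lower, 3460 to 5838 against 436 to 821 CPM) also differed between the groups. The part of any of these cells in the values of Des was not tested.

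In calcium handling, Atp2a1, the calcium pump of fast fibers, had 0, 0, 250 and 213 counts in the EtOH tumors and 0, 4, 15 and 43 counts in the calcipotriol tumors. Atp2a1 was near 0 in the same 4 tumors as Ckm (log2 fold change -2.83, SE 1.63, adjusted p = 0.389). Its exons lie opposite exons of Rabep2 over 763 bases, and Rabep2 had 315 to 520 counts in every tumor, so the zeros of Atp2a1 did not come with an absence of Rabep2. Ryr1, the calcium release channel, had 6, 0, 21 and 8 counts in the EtOH tumors and 21, 13, 7 and 23 counts in the calcipotriol tumors, with the groups overlapping (log2 fold change 0.85, adjusted p = 0.689). Pvalb, a calcium buffer of the fastest fibers, had 16 and 93 counts in EtOH 3 and 4, 8 counts in calcipotriol 6 and 0 elsewhere. Cacna1s, the voltage sensor of the T-tubule, had 6 and 4 counts in EtOH 3 and 4 and 0 elsewhere. Casq1, the calcium store protein, had at most 28 counts, and Trdn, which anchors it, had 3 counts in calcipotriol 7 and 0 elsewhere.

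On the CPM scale, 5 of the 20 genes did not overlap between groups, Mylk2 and Neb with calcipotriol higher (6.32% of all genes tested) and Myh1, Tnnc2 and Des with calcipotriol lower (6.16% of all genes). Tnnc2 is among them only through the difference between 0.633 and 0.625 CPM at a tied count of 13. In an exact permutation of the tumors (two-sided, log2 CPM, 70 arrangements, smallest possible p 0.0286), the unadjusted p was 0.0571 for Eno3, 0.2 for Acta1 and 0.657 for Ckm. Without overlap the p is 0.0286 by construction, so it adds nothing for the other genes.

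EtOH 3 and 4 were singled out by the levels of these same genes. The counts that follow describe that pattern and do not test it. Across tumors, 13 of the 20 genes had both EtOH 3 and EtOH 4 above the other 6 tumors, against 9.15% of all genes tested. The highest tumor was EtOH 3 or EtOH 4 for 14 of the 20, against 23.1% of all genes. Of 18 muscle genes with at least 20 counts in both EtOH 3 and EtOH 4, 4 had 0 counts in both EtOH 1 and EtOH 2 (Ckm, Myh4, Myl1 and Atp2a1), against 0.326% of all such genes (41 of 12573). That share was not matched for abundance, and a 0 is less likely for a gene with many counts. The reverse pattern, 0 counts in EtOH 3 and 4 with at least 20 counts in EtOH 1 and 2, was met by 23 of 12358 genes.

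Each tested gene was set beside the mean log2 CPM of the other 19, over the 8 tumors, as a description. The points share their libraries and depth, and 2 tumors hold most of the range. Pearson r was 0.97 for Ckm, 0.96 for Tnnt3 and Atp2a1, 0.95 for Myh4, 0.84 for Mylpf and Pygm, 0.79 for Acta1 and Actn3, and 0.74 for Myoz1. The median was 0.69. Without EtOH 3 and 4, the tumors farthest from the median, r was 0.89 for Ckm, 0.94 for Tnnt3, 0.85 for Atp2a1 and Myh4, and 0.31 for Acta1 and Actn3. Ckm, Tnnt3, Atp2a1 and Myh4 still varied together over the remaining 6 tumors, where calcipotriol 6 and 7 were higher than the rest. However, Ckm, Atp2a1 and Myh4 passed the filter on low counts only through EtOH 3, EtOH 4, calcipotriol 6 and calcipotriol 7. Their shared rise in calcipotriol 6 and 7 was thus partly set by that filter.

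Other genes changed their relation to the mean with the tumors used. Without EtOH 3 and 4, r went from 0.69 to -0.36 for Eno3, from 0.62 to -0.17 for Tnnc2, from 0.40 to -0.35 for Des and from 0.37 to -0.48 for Myh1. All 4 genes had 13 or more counts in EtOH 1 and EtOH 2, where Ckm had 0. For Tnnc1, r was -0.79 with all tumors and -0.75 without the pair. For Neb, r was 0.02 over the 8 tumors and 0.78 without the pair, and for Mylk2 it was -0.32 and 0.43.

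**Figure D3:**
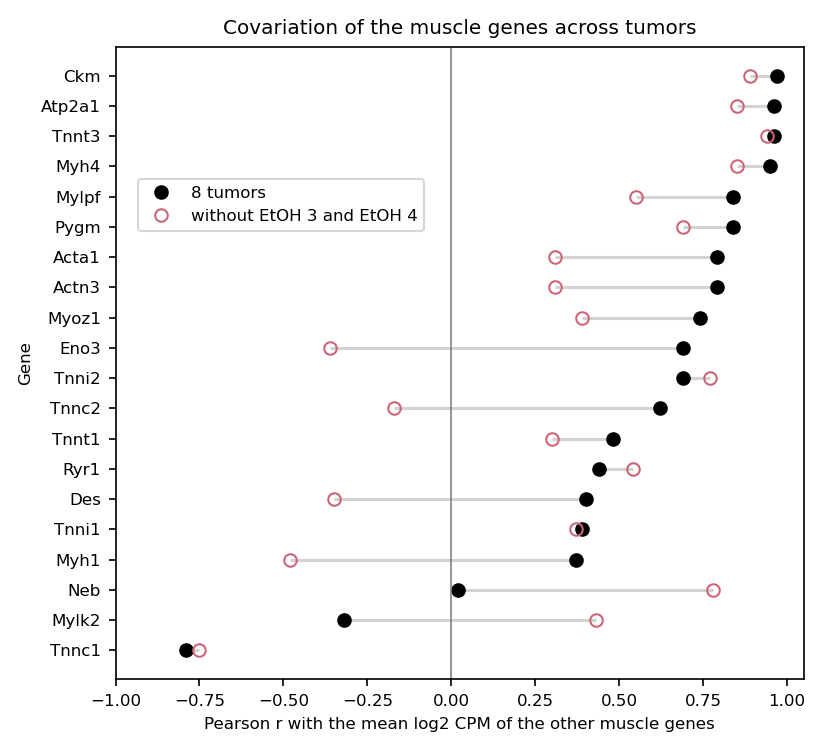
Pearson r of each of the 20 muscle genes tested with the mean log2 CPM of the other 19, over 8 tumors (filled) and without EtOH 3 and EtOH 4 (open). Ckm, Tnnt3, Atp2a1 and Myh4 lie at 0.85 or above in both, whereas Eno3, Tnnc2, Des and Myh1 are positive with the pair and negative without it.

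In the 4 tumors with more than 1 count of Ckm, the genes were also expressed per Ckm count, which does not depend on library size. Acta1 had 1.77 and 1.42 counts per Ckm count in EtOH 3 and 4, and 1.43 and 1.75 in calcipotriol 6 and 7. The exact 95% intervals of Acta1 (Clopper-Pearson) overlapped, with 1.5 to 2.1 in EtOH 3 and 0.791 to 2.63 in calcipotriol 6. Actn3 had 0.758, 0.942, 0.714 and 1.04 counts per Ckm count in the same order of tumors. The highest ratio exceeded the lowest by 1.25 times for Acta1 and 1.46 times for Actn3, while the Ckm count itself ranged from 21 to 243. These were the narrowest ranges among the genes with counts in all 4 tumors. The range was 2.12 times for Myh4, 2.51 times for Atp2a1 and 4.9 times for Tnnt3, which had followed the mean of the other genes as closely as Ckm.

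For another group of genes the ratio was higher in both calcipotriol tumors. Tnni1 had 0.471 and 0.362 counts per Ckm count in EtOH 3 and 4, and 5.05 and 2.71 in calcipotriol 6 and 7. The interval of Tnni1 was 0.370 to 0.596 in EtOH 3 and 3.14 to 8.49 in calcipotriol 6, which do not meet. Mylk2 went from 0.0359 and 0.107 to 1.67 and 1.42, and Tnni2 from 0.274 and 0.169 to 2.24 and 1.29. Tnnt3 went from 0.52 and 0.35 to 1.71 and 1.12. Its interval was 0.412 to 0.654 in EtOH 3, 0.974 to 3.09 in calcipotriol 6 and 0.625 to 2.04 in calcipotriol 7. Eno3 went from 11.4 and 11.5 to 68.0 and 51.8. The intervals cover counting error only, and reads copied by PCR are not independent molecules.

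**Figure D4:**
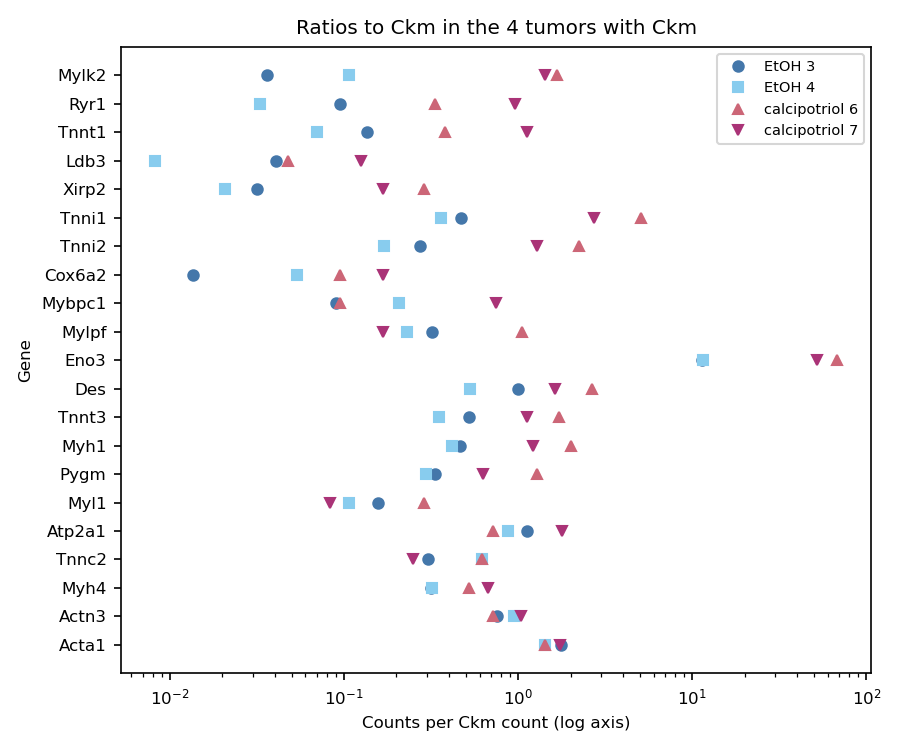
Counts per Ckm count (log axis) of the muscle genes with counts in EtOH 3, EtOH 4, calcipotriol 6 and calcipotriol 7, a point per tumor, ordered by the range between tumors. The 4 points of Acta1 lie between 1.42 and 1.77, while those of Mylk2 run from 0.0359 to 1.67.

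Fast and slow forms were also set side by side, with no test of a difference between them. The 12 fast-fiber genes, all among the 37, summed to 5.64, 4.38, 40.1 and 47.9 CPM in EtOH 1, 2, 3 and 4, and to 3.18, 4.93, 10.6 and 8.18 CPM in calcipotriol 1, 5, 6 and 7. The 7 slow-fiber genes, of which 4 are among the 37, summed to 2.97, 3.36, 6.52 and 4.85 CPM with EtOH and to 8.54, 7.13, 6.25 and 5.72 CPM with calcipotriol. The fast sum was highest in EtOH 4, and the slow sum was highest in calcipotriol 1, where the fast sum was lowest. Tnni1 gave 5.36 of the 8.54 CPM of that slow sum. Per kb of exon, Tnnt3 exceeded Tnnt1 in 5 of the 8 tumors, with 2.97 against 0.551 CPM per kb in EtOH 3 and 0.326 against 0.631 CPM per kb in calcipotriol 1. Tnni2 and Tnni1 were close in calcipotriol 5 (1.46 and 1.48 CPM per kb) and calcipotriol 6 (1.51 and 1.42 CPM per kb), and both were higher in EtOH 3 and 4 than in EtOH 1 and 2. None of the 3 slow genes tested and none of the 8 fast genes tested was called by edgeR. At an unadjusted p under 0.05 by edgeR there were 0 and 3, respectively, beside 18.4% of all genes. DESeq2 called 0 and 2 (Myh1 and Tnnc2, both lower), beside the 2.25% of all genes that it called lower.

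**Figure D5:**
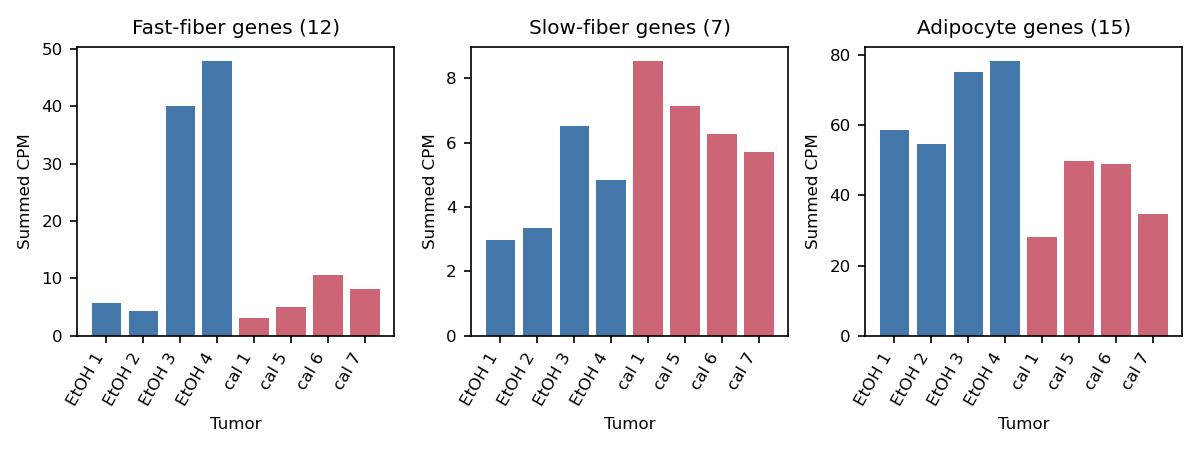
Summed CPM of fast-fiber, slow-fiber and adipocyte genes in each tumor (bars from 0, blue EtOH and red calcipotriol, each panel with its own axis). The fast-fiber bars of EtOH 3 and 4 reach 40.1 and 47.9 CPM against at most 10.6 CPM elsewhere, while the slow-fiber bars stay between 2.97 and 8.54 CPM.

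The rest of the muscle program was compared through 63 other genes of skeletal muscle. Of these, 14 were tested, 5 with a positive and 9 with a negative log2 fold change and a median of -0.46. By edgeR or DESeq2, 0 were called, and 2 had an unadjusted p under 0.05 by edgeR, beside 18.4% of all genes. The most abundant, Tpm3 (10037 to 19612 counts), Fbxo32 (245 to 779), Chrnb1 (228 to 598) and Phka1 (201 to 368), were counted in every tumor and had no zeros in EtOH 1 and 2. They do not stand for the whole list. Of the 63, 22, 21, 27 and 34 exceeded 3 counts in EtOH 1, 2, 3 and 4, and 23, 23, 21 and 23 did in calcipotriol 1, 5, 6 and 7. Sparser genes went both ways. Pgam2 had 1, 9, 49 and 19 counts in the EtOH tumors and Cox8b had 0, 0, 0 and 49, whereas Sgca had 46, 50, 0 and 4. Of the 14, 2 had EtOH 3 and 4 above the other 6 tumors, beside the 9.15% of all genes, and 13 of the 63 were at 0 in all tumors. Myogenic regulators were sparse. Myog and Myf6, factors of fiber differentiation, and Mymx, a fusion protein, had 0 counts in every tumor, and Pax7, the satellite cell factor, had at most 1. Myod1, the muscle determination factor, had 4 counts in EtOH 1, 21 in EtOH 3 and 0 elsewhere. Of 8 regulators tested, 1 was called by edgeR, beside 2.02% of all genes. This was Itga7, the laminin-binding integrin of muscle and other cells, which was higher with calcipotriol (227, 198, 147 and 220 against 819, 473, 509 and 489 counts, log2 fold change 1.45, adjusted p = 0.013 by edgeR).

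Several adipocyte genes shared the zeros in EtOH 1 and 2. Cfd, the adipokine adipsin, had 4, 0, 433 and 509 counts in the EtOH tumors and 38, 314, 241 and 147 counts in the calcipotriol tumors. Adipoq, the adipokine adiponectin, had 0, 0, 37 and 21 counts in the EtOH tumors and 0, 48, 32 and 13 counts in the calcipotriol tumors. Both were thus high in calcipotriol 5, where Ckm had 1 count, and low in calcipotriol 1, where it had 0. Over the 15 adipocyte genes, 5, 3, 11 and 10 exceeded 3 counts in EtOH 1, 2, 3 and 4, and 6, 10, 11 and 9 did in calcipotriol 1, 5, 6 and 7. Their sum was 54.5 to 78.3 CPM with EtOH and 28.0 to 49.7 CPM with calcipotriol, largely from Fabp4 and Lipe, which were counted in every tumor. Of the 8 adipocyte genes tested, 1 was called by edgeR, beside 2.02% of all genes. This was Fabp4, a fatty acid carrier, which was lower with calcipotriol (log2 fold change -1.19, adjusted p = 0.0082 by edgeR). Cardiac genes (12 genes) summed to 137 to 297 CPM with EtOH and 76.3 to 283 CPM with calcipotriol. That sum came largely from Tnnt2, which averaged 185 CPM, while the next gene, Nppb, averaged 4.4 CPM. Of the 12 cardiac genes, 5 were tested and 0 were called by edgeR or DESeq2, with 1 at an unadjusted p under 0.05 by edgeR (18.4% of all genes). The part of fat or of the library in the low muscle counts of EtOH 1 and 2 was not tested.

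Genes outside the list that followed the mean of the 20 were sought only among those that averaged 50 counts or more. Over the 11934 genes that averaged 50 counts or more, r was 0.948 to 0.995 over the 8 tumors for the first 10, Tmem141, Lpcat1, Rfc5, Ctdp1, Asf1b, Heatr3, Mmab, Nup85, Mcm3 and Dnajc9. Rfc5 and Mcm3 are DNA replication factors and Asf1b is a histone chaperone. Mcm3 had 1145, 1151, 2897 and 2950 counts in the EtOH tumors and 1472, 1471, 1464 and 1945 counts in the calcipotriol tumors, and thus shared the rank of EtOH 3 and 4 but not the zeros. In all, 50 genes (0.419%) had r of at least 0.9. The count minimum kept only 6 of the 63 other skeletal muscle genes, and none of these was among the 50. The absence of muscle genes there was thus largely set by the minimum. The difference of EtOH 3 and 4 from EtOH 1 and 2 was thus shared by genes outside muscle.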

How the data were processed

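RNA from 8 PyMt tumors was measured by RNA-Seq, and the authors deposited expected counts per gene, given to 2 decimals, for each tumor with no scaling between them. The submitters' processing notes name STAR 2.5.3, RSEM 1.3.1, DESeq2 1.24.0 and GRCm38, without roles. The annotation release and the use of strand in counting are not given in the sources used here. The labels name a NovaSeq sequencer and the methods a HiSeq. Age, dose and times come from the methods. In each tumor 4.2% to 6.22% of values had decimals, and all were rounded, since the planned count tests take whole numbers. The table has 0 columns of other samples. Symbols came from GENCODE M21 (52081 of 55414 identifiers).

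Calcipotriol was compared with EtOH in edgeR 4.0.16 under R 4.3.3 (TMM, quasi-likelihood test, low counts removed by filterByExpr, Benjamini-Hochberg over all genes tested), with thresholds of 0.05 and an absolute log2 fold change of 1. DESeq2 1.42.0 and limma-voom (limma 3.58.1) were alternatives, as were DESeq2 size factors, removal of muscle genes before TMM, other filters, no fold minimum and each tumor left out. log2 CPM used a prior count of 2. The edgeR test gives no standard error, so each SE is the size of the log2 fold change divided by the square root of its F statistic. Totals of 19685419 to 25084713 counts leave values of a few counts imprecise. The methods call the tumors biological replicates. The scripts were tested on simulated data.

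All 37 listed genes are named, with at most 4 genes of each marker list by mean CPM beside those that a result turned on, chosen after their values were seen, and the 10 genes most like the mean. The genes and lists were chosen with earlier results of these data known.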

Additional observations from a re-analysis of the deposited data

Results flagged for a closer look

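In 42 groups of 4 tumors, a gap test (Dixon, at the 95% level) on log2 of CPM plus 0.1 singled out 2 values, beside about 2.1 that chance gives at 1 in 20. Tnni1 in calcipotriol 7, at 2.76 CPM, was far below the other 3 calcipotriol tumors. Neb in EtOH 3, at 0.203 CPM (5 counts), was above the other 3 EtOH tumors, which were all at 0, so that any count would have been singled out.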

How the results depend on the processing

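Of the 20 muscle genes tested, 17 kept the sign of their log2 fold change under each alternative that left out at most 1 tumor and tested them, and 0 were called higher under any. Tnnt1, Neb, Ryr1 and Myoz1 had no adjusted p under DESeq2 and could not be called there. Reversed signs were Tnnt3 (0.43) and Pygm (0.39) with limma-voom and Tnnc1 without EtOH 4 (-0.14, with -0.14 to 0.89 over the tumors left out). Genes called lower numbered 1 with no filter on low counts (Des), 2 with at least 10 counts in every tumor (Myh1 and Des) and 3 with DESeq2. Of the 4 genes that the stricter filter kept, 2 did not overlap between groups, and with no filter 4 genes did not. The share of all genes called, or without overlap, was not taken under these filters. The counts of muscle genes under them therefore cannot be set against it. All genes past both thresholds numbered 458 with no filter, 640 with DESeq2 and 110 to 642 with a tumor left out (292 otherwise). With each tumor left out, 0 muscle genes were called. With EtOH 3 and 4 both left out, 605 genes were called, the median of the muscle genes was 1.45, 9 of the 19 genes tested in both fits changed sign and 10 of 20 did not overlap (7 higher and 3 lower, against 18% and 17.3% of all genes). With EtOH 1 and 2 both left out, 177 genes were called, 2 of 20 changed sign and 20 of 28 did not overlap (3 higher and 17 lower, against 18% and 14.6% of all genes). In that fit Actn2, Myl1 and Pvalb passed the filter only through EtOH 3 and 4, where they were highest. The count of 17 lower was thus partly set by the filter and by the choice of tumors, and is not a test. The median r was 0.41 to 0.81 over its alternatives. No paired analysis was possible because the groups share only replicate number 1. Depth limits the 17 genes that were not tested.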
